A study of Equus caballus with 4 samples.

Results

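Expression of 10 regulators of mitochondrial biogenesis was examined in equine satellite cells (ESC), the stem cells of horse skeletal muscle, during their differentiation. The genes were the coactivators PPARGC1A and PPARGC1B, the transcription factors NRF1, ESRRA and PPARD, the mitochondrial DNA factor TFAM, the deacetylases SIRT1 and SIRT3, and the uncoupling proteins UCP2 and UCP3. They were chosen by name: every probe that is no control and carries 1 of these symbols was taken, which gave 21 probes of 10 genes among 43603 probes with 24998 different gene names or identifiers. Both groups were ESC from m. semitendinosus on day 3 of differentiation, and both were exposed to 3 mM H2O2 for the last 1 h. The HMB group was also given 50 µM β-hydroxy-β-methylbutyrate (HMB), which the body makes from leucine. HMB was present for 24 h, and the RNA of this group was labelled with Cy5. The control group received no HMB, and its RNA was labelled with Cy3. Both RNAs were hybridised together on each of 4 arrays of 1 slide, so each array gave 1 ratio per probe and n = 4 throughout. Per the methods, the muscle came from stallions 6 months old, and the culture of a single horse was selected for the experiments, so the arrays do not sample different animals. The labels call the arrays biological replicates, but the control RNA is numbered as replicate 1 in each of them. The series' design and the methods give 4 control replicates. Should 1 control RNA nevertheless have served for all arrays, the spread between control cultures is missing from the p-values. The dyes were not swapped, so a dye effect and the HMB effect cannot be told apart.

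Mitochondrial biogenesis is driven by a relay of transcription factors. The coactivator PPARGC1A (PGC-1α) and its relative PPARGC1B (PGC-1β) dock on factors such as NRF1 and the oestrogen-related receptor ESRRA. These switch on nuclear genes of the respiratory chain, and also TFAM, which enters the mitochondrion, packs its DNA and starts its transcription. SIRT1, a nuclear enzyme that depends on NAD, removes acetyl groups from PPARGC1A, while SIRT3 does the same to enzymes inside the mitochondrion.

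The probes are 60 bases long. They are shown here for the genes in which probes of 1 gene can be compared or in which a single probe carries the value. Both TFAM probes overlap, and the capitals mark the 30 bases they share.
TFAM upstream: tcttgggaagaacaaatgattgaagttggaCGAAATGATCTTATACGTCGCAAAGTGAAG
TFAM downstream: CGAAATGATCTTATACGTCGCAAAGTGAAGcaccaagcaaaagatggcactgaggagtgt
The PPARGC1B, SIRT3 and UCP2 sequences are whole probes.
PPARGC1B: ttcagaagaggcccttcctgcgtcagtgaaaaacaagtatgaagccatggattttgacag
SIRT3: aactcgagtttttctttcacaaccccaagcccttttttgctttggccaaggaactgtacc
UCP2: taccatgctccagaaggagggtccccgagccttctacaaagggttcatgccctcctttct
For ESRRA, a stretch of 30 bases common to all 5 of its probes is given. For SIRT1 the first 30 bases of its probe are given, and for NRF1 30 bases found in both of its probes.
ESRRA: cagagactctattttaatgtatatttgctg
SIRT1: ccaaagaatggtattttcacacttttcttt
NRF1: tgtgtatacttatgtgtgtgtatgtgtgag

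Of the 10 genes, 6 had a tested probe, meaning a probe with 1 and the same channel well above background on all 4 arrays. PPARGC1A, NRF1, PPARD and UCP3 had none. ESRRA and SIRT1 were called lower in the HMB group, and no tested regulator was called higher. The called probes of ESRRA, SIRT1 and TFAM numbered 7 of 15 tested, all lower, with FC from 1.31 to 1.43. They are not 7 separate measurements, since 5 of them are overlapping ESRRA probes. A probe was called at an adjusted p of 0.05 or less (limma, Benjamini-Hochberg over all tested probes) and an FC of 1.3 or more. By this rule 28.6% of the 24650 tested probes on the array passed, with 12.2% higher in the HMB group and 16.4% lower. The 2 called genes were 33.3% of the 6 tested, a share near that of all probes. The call of SIRT1 rests on the probe listed under its symbol, and a brighter SIRT1 probe listed without it was not called. Without the FC threshold and without adjustment (p of 0.05 or less), 0 of the 6 regulators were higher by limma and 0 by the methods' t-test. The median log2 ratio of the tested regulators was -0.23, against -0.07 over all tested probes, and 4 of the 6 were lower on all 4 arrays.

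**Figure D1:**
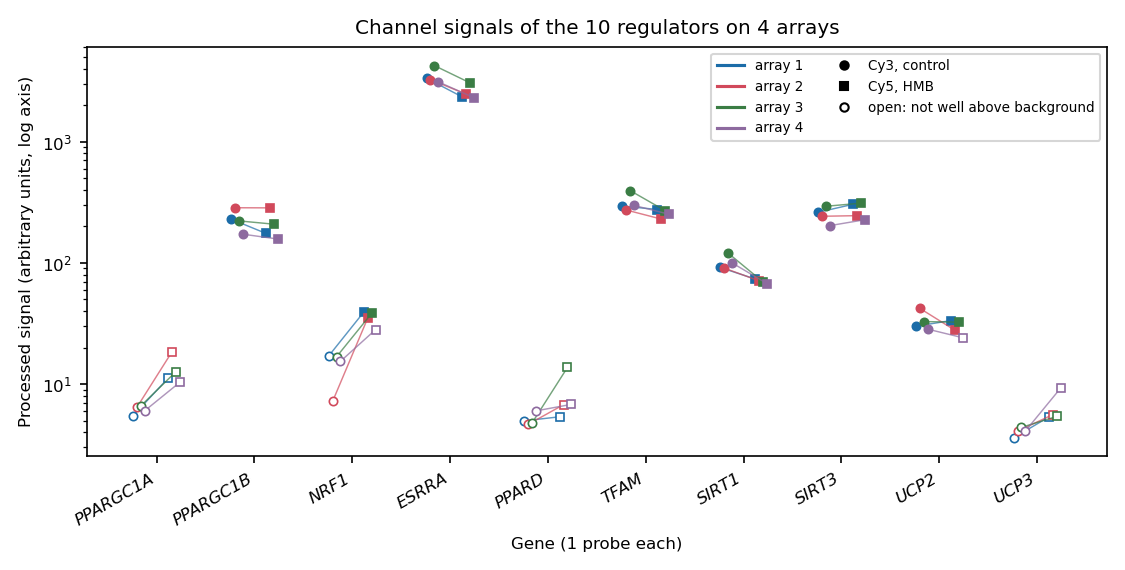
Processed signal (arbitrary units, log axis) of 1 probe per regulator, with Cy3 (control, circles) joined to Cy5 (HMB, squares) on each of the 4 arrays, and open symbols where the spot was not well above background. ESRRA and SIRT1 fell from Cy3 to Cy5 on every array, while PPARGC1A, PPARD and UCP3 had open symbols throughout. Signals of different probes are not comparable with each other.

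Among the coactivators, PPARGC1B was measured and PPARGC1A was not. The brightest PPARGC1B probe, at chr14:27335500-27335559 on the minus strand of EquCab1, gave Cy3 signals of 230.2, 285, 222 and 173 on arrays 1 to 4. Its Cy5 signals were 175, 284, 209 and 157. The groups overlapped, and array 1 held the widest gap between the channels. On the log2 scale the ratios were -0.40, 0.00, -0.09 and -0.13, with a mean of -0.16 ± 0.17 (SD, n = 4) and an adjusted p of 0.161 (limma). The 5 PPARGC1B probes start within 14 bases of each other and share 46 bases, so they are close to 1 measurement. Their mean log2 ratios ranged from -0.24 to -0.13, and none was called. On each of the 5 probes, array 1 had the lowest ratio.

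Both PPARGC1A probes stayed at background in both channels on all 4 arrays. They lie side by side, at chr3:94308469-94308528 and chr3:94308530-94308589. The first had Cy3 signals from 4.14 to 5.01, Cy5 signals from 5.91 to 8.22 and a deposited ratio of 0 on every array. The second had Cy3 signals of 5.48, 6.43, 6.60 and 6.02 and Cy5 signals of 11.2, 18.6, 12.7 and 10.4. For comparison, the lowest signal that counted as well above background was 10.6 to 22.3 in Cy3 and 14.1 to 22.4 in Cy5, depending on the array. The log2 ratios of the second probe were 1.03, 1.53, 0.94 and 0.78. These have no defined size, since neither channel was well above background, and the pair of neighbouring probes did not show the same value.

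Among the transcription factors, ESRRA was lower in the HMB group on every array and with every probe. Its brightest probe, at chr12:14967376-14967435, had Cy3 signals of 3340.2, 3253, 4245 and 3118. The Cy5 signals were 2351, 2476, 3069 and 2313. All Cy5 values lay below all Cy3 values. This gave log2 ratios of -0.51, -0.39, -0.47 and -0.43, with a mean of -0.45 ± 0.05 (SD, n = 4), an FC of 1.37 and an adjusted p of 0.00173 (limma). The 5 ESRRA probes begin within 7 bases of each other and share 53 bases, so they are close to 1 measurement. Their means ran from -0.47 to -0.39, and all 5 were called. This FC lies close to the threshold: with no background correction followed by loess the log2 ratio was -0.36, with arrays centred on the median in place of lowess it was -0.33, and in both cases ESRRA was no longer called.

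NRF1, which activates nuclear genes for mitochondrial proteins, had 2 probes that overlap by 40 bases, at chr4:83790727-83790786 and chr4:83790747-83790806. On the first, Cy3 was not well above background on any array, with signals of 17.1, 7.20, 16.8 and 15.4. Cy5 was well above background on 3 arrays, and its signals were 39.5, 35.2, 38.4 and 28.2. Cy5 was the higher channel on all 4 arrays, with log2 ratios of 1.21, 2.29, 1.19 and 0.87. As a mean over the arrays, Cy5 was 1.98-fold higher than a floor set for Cy3. On each array the floor was the larger of 2 values: the probe's own Cy3 signal and the lowest Cy3 signal counted as well above background. Array 4, where neither channel was well above background, is part of this mean, so 1.98 is no firm minimum. The floor is also no detection limit: on array 1 a Cy3 signal of 14.0 counted, while the 17.1 of this probe did not. The second NRF1 probe was not well above background in either channel, with Cy3 signals from 4.15 to 5.11 and Cy5 signals from 9.51 to 19.1. Its log2 ratios were 1.25, 1.94, 1.62 and 1.06.

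The 3 probes with a positive ratio on all 4 arrays among the genes that were not tested share a property of their sequence. The NRF1 probes hold 42 and 43 T or G bases of 60, and the second PPARGC1A probe holds 43, while the other PPARGC1A probe holds 27. Over the whole array, 14186 probes had no channel well above background on any array, and 2.69% of them were positive on all 4 arrays. Among the 70 of these with 42 or more T or G bases, 8 were positive on all 4 arrays (11.4%), compared with 374 of 14116 others (2.65%). The class was set from the 3 probes after their values were seen, and it contains 2 of them. Without these it held 6 of 68 (8.82%). The part of base composition in their ratios was not tested.

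PPARD, a nuclear receptor that activates fatty acid oxidation genes, was not well above background in either channel. Its Cy3 signals were 4.98, 4.65, 4.80 and 6.01 and its Cy5 signals 5.37, 6.76, 13.7 and 6.80. The log2 ratios of 0, 0.54, 1.51 and 0 came mainly from array 3. The probe lies at chr20:28941404-28941463.

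TFAM gave lower mean ratios with both probes, but only 1 of them was called. The upstream probe, at chr1:47459359-47459418, had Cy3 signals of 151, 148, 213 and 162. Its Cy5 signals were 133, 121, 134 and 116. All of these lay below the Cy3 values, and array 3 had the widest gap. The log2 ratios were -0.19, -0.29, -0.67 and -0.47, with a mean of -0.41 ± 0.21 (SD, n = 4), an FC of 1.33 and an adjusted p of 0.0130 (limma). The downstream probe, at chr1:47459389-47459448, was the brighter and stood for the gene. Its Cy3 signals were 294, 273, 395 and 298 and its Cy5 signals 276, 229.7, 269 and 252, so the groups overlapped slightly. It gave log2 ratios of -0.09, -0.25, -0.55 and -0.24, with a mean of -0.29 ± 0.19 (SD, n = 4) and an adjusted p of 0.0371 (limma). The FC of 1.22 was under the threshold, and TFAM was not called. Without array 3, the upstream probe had a mean of -0.32 and was not called either. It was also not called with normexp and loess (-0.16), no background correction and loess (-0.23), median centring (-0.37), the methods' t-test after adjustment or no filter on dim probes, and the downstream probe was at -0.08 with normexp and loess.

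**Figure D2:**
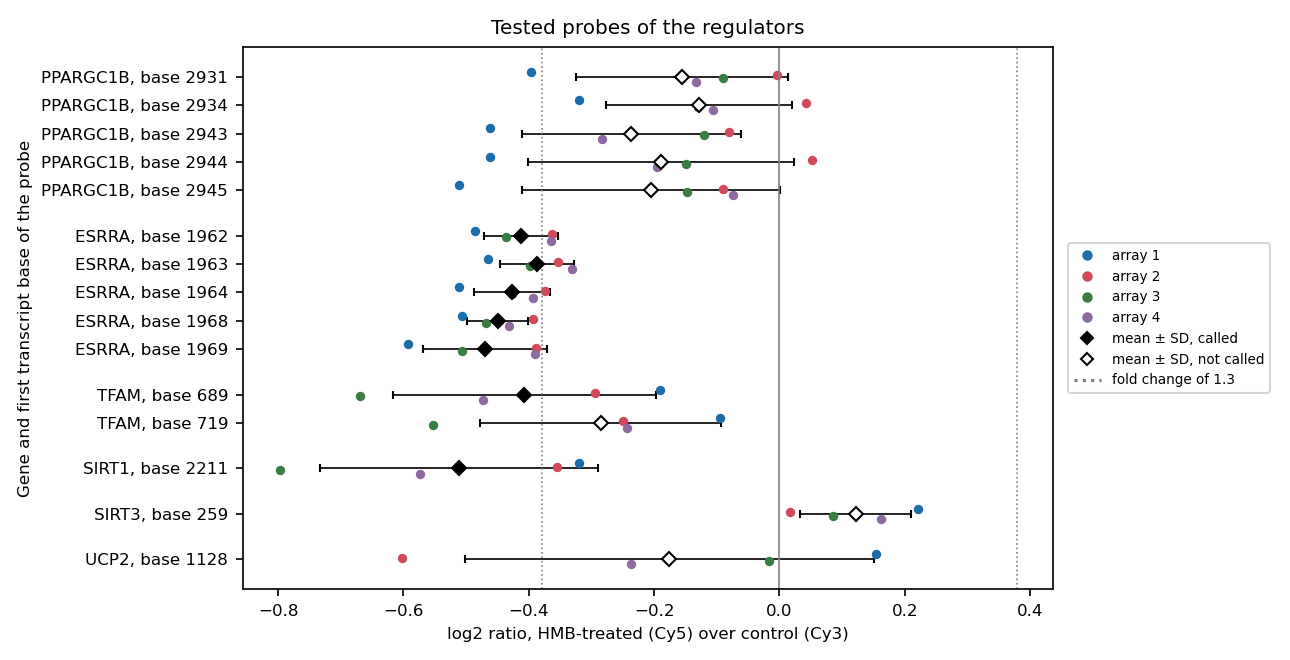
Log2 ratio of the HMB group over control for the 15 tested probes of the regulators, with each array as a coloured point and the mean ± SD (n = 4) as a diamond, filled where called. Dotted lines mark an FC of 1.3. The means of the ESRRA probes lie between -0.47 and -0.39, and their SDs are at most 0.10. The SDs are wider for PPARGC1B (0.15 to 0.21), TFAM, SIRT1 and UCP2.

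Both sirtuins were measured, and their mean ratios had opposite signs. SIRT1 had 1 probe under its symbol, at chr1:55683118-55683177, with Cy3 signals of 91.7, 90.7, 121 and 100.2. The Cy5 signals were 73.5, 71.0, 69.4 and 67.4. Every Cy5 value lay below every Cy3 value. The log2 ratios were -0.32, -0.35, -0.80 and -0.57, with a mean of -0.51 ± 0.22 (SD, n = 4), an FC of 1.43 and an adjusted p of 0.00631 (limma). As for TFAM, array 3 held the lowest ratio. With normexp background correction followed by loess, in place of the deposited background and lowess steps, the SIRT1 log2 ratio was -0.13. With no background correction followed by loess it was -0.24, and neither was called.

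A further SIRT1 probe is listed under a RefSeq accession in place of the symbol and is described as SIRT1, so it was not counted among the 21. It lies at chr1:55684404-55684463. Its Cy3 signals were 583, 561, 784 and 671 and its Cy5 signals 515, 459.5, 574 and 561. The log2 ratios were -0.18, -0.29, -0.45 and -0.26, with a mean of -0.29 ± 0.11 (SD, n = 4) and an adjusted p of 0.0150 (limma). It was lower on all 4 arrays, but the FC of 1.23 did not reach the threshold. This probe was the brighter of the pair, with a mean log2 signal of 9.18 against 6.39. Had it been listed under the symbol, it would have stood for SIRT1, and SIRT1 would not have been called.

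SIRT3 was slightly brighter in the HMB group on all 4 arrays. Its Cy3 signals were 261, 242, 293 and 203 and its Cy5 signals 305, 245, 311 and 227, so the groups overlapped. With log2 ratios of 0.22, 0.02, 0.09 and 0.16, the mean of 0.12 ± 0.09 (SD, n = 4) did not pass the test (adjusted p = 0.168, limma). When arrays were scaled to spike-in RNA the SIRT3 ratio turned to -0.48. That scaling moved the median of all tested probes by -0.60, to -0.67, and relative to that median SIRT3 was at 0.19. The probe maps to sequence that EquCab1 does not place on a chromosome.

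The uncoupling proteins are carriers of the inner mitochondrial membrane. UCP2 and UCP3 are neighbouring genes, and their probes lie 23654 bases apart on chromosome 7. The UCP2 probe spans 404 bases of the genome, from 57693824 to 57694227, so its 60 bases are not contiguous there. It was dim, with Cy3 signals of 30.02, 42.2, 32.8 and 28.4 and Cy5 signals of 33.4, 27.8, 32.4 and 24.1. Cy5 was well above background on 3 arrays. The log2 ratios of 0.15, -0.60, -0.02 and -0.24 had both signs, with a mean of -0.18 ± 0.33 (SD, n = 4) and an adjusted p of 0.290 (limma). UCP3, at chr7:57670111-57670170, was not well above background in either channel. Its Cy3 signals ranged from 3.60 to 4.39, and its Cy5 signals were 5.36, 5.60, 5.41 and 9.26. The deposited log2 ratio was 0 on arrays 1 to 3 and 1.18 on array 4.

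**Figure D3:**
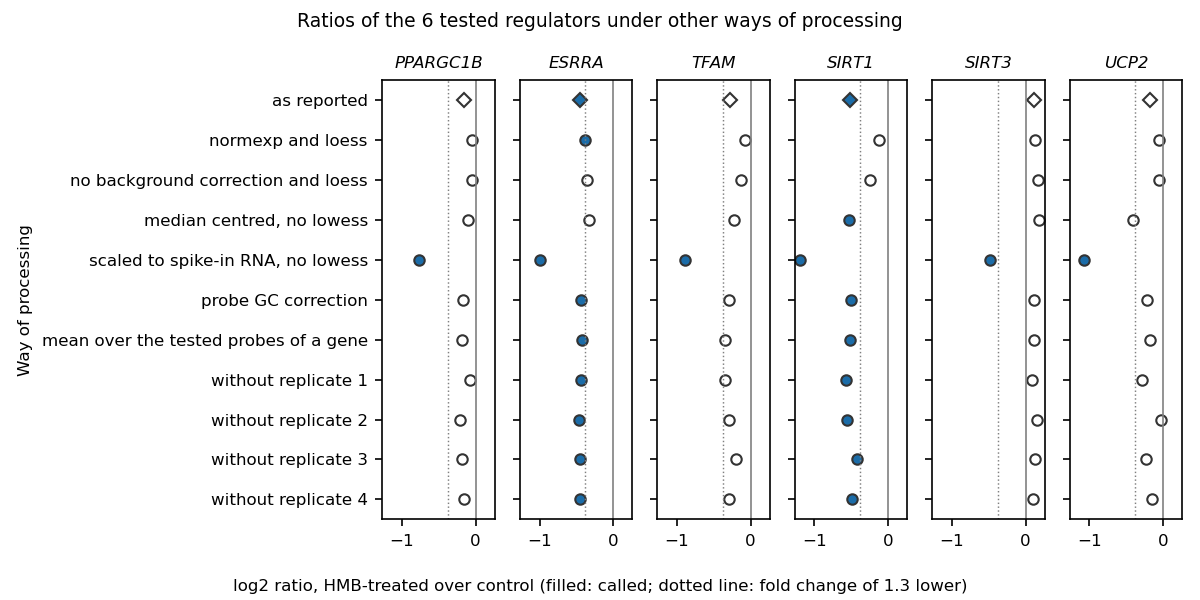
Log2 ratio of the 6 tested regulators (1 probe each, or the mean over a gene's probes where stated) as reported (diamond) and under other ways of processing (circles), filled where called, with the dotted line at an FC of 1.3 lower. PPARGC1B, ESRRA, TFAM, SIRT1 and UCP2 stayed below 0 in every row shown, and scaling to spike-in RNA shifted all 6 genes down, SIRT3 to -0.48.

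Other genes of the same pathways were read from 7 lists of 117 genes, of which 98 were on the array and 80 were tested. The called genes numbered 18 (22.5% of those tested), of which 5 were higher and 13 lower, and the median log2 ratio was -0.16. Over all tested probes the share called was 28.6%, with 12.2% higher and 16.4% lower, so the 22.5% lies below that of the whole array, and the counts of single lists that follow are to be read against the same shares. Across 17 other ways of processing, 6 of the 18 stayed called wherever a value could be had: NCOA1, SIRT5, NAMPT, CD38, PRKAB2 and SLC25A4. CD38 had no value where both channels had to be well above background, since its Cy3 signal was not on any array.

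Of 13 tested coactivators and nuclear receptors, 1 was higher and 1 lower. NCOA1, a steroid receptor coactivator, fell with all 5 of its probes, and the brightest had a log2 ratio of -0.68 ± 0.18 (SD, n = 4). RXRA, the partner of PPAR receptors, had a log2 ratio of 0.72 ± 0.41 with its 1 tested probe of 5, on which Cy5 was well above background on 4 arrays and Cy3 on 2. RXRA was not called with normexp and loess (0.20), no background correction and loess (0.24), the methods' t-test after adjustment or no filter on dim probes. With spike-in scaling it was at -0.16 and was not called, or 0.51 above the median of all probes under that scaling. For maintenance and transcription of mitochondrial DNA, the process TFAM serves, 2 of 13 tested genes were lower and 0 higher by the brightest probe. DGUOK (0.36) and TEFM (-0.33) were not called by that probe, though each had 1 of 2 probes called. The lower genes were MTERF3 (-0.41 ± 0.08), a repressor of mitochondrial transcription, and TFB2M (-0.44 ± 0.24), which opens the promoter together with TFAM and the mitochondrial RNA polymerase. Neither was called with normexp and loess or with no background correction and loess. MTERF3 was also not called with median centring. TFB2M was also not called without array 3, with the methods' t-test after adjustment or with no filter on dim probes. It came as close to 0 as -0.14 among the alternatives.

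In NAD metabolism and other sirtuins, 2 of 10 tested genes rose and 1 fell. By the deposited ratios both rises were larger than any other among the 18, but the rise of CD38 has no defined size. CD38, which breaks down NAD, had Cy5 well above background on all 4 arrays and Cy3 on none, so it entered the test through the HMB group alone. Set against a floor for Cy3, as for NRF1, its mean was 3.99-fold higher there with the deposited normalization, again no firm minimum. Its log2 ratio was 0.47 with normexp and loess and 0.73 with no background correction and loess. NAMPT, the rate-limiting enzyme of NAD salvage, rose on all 4 arrays, with log2 ratios of 1.37, 1.44, 1.24 and 1.20 (FC 2.48, adjusted p = 4.2e-05, limma). SIRT5, a mitochondrial enzyme that removes succinyl and malonyl groups, fell with both of its probes. Its log2 ratios were -0.96, -1.04, -1.04 and -0.90 (FC 1.98, adjusted p = 8.8e-05, limma).

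AMPK, the energy sensor that acts upstream of PPARGC1A, had 2 of 10 tested genes lower and 0 higher. The regulatory subunit PRKAB2 fell by 0.54 on the log2 scale. The catalytic subunit PRKAA2 had a log2 ratio of -0.76 ± 0.20, with Cy5 well above background on 1 array. It was at -0.19 with normexp and loess and at -0.26 with no background correction and loess, and was not called with either.

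Of 4 tested carriers related to UCP2 and UCP3, 2 were lower. SLC25A4, the muscle form of the ADP/ATP carrier, fell with all 5 of its probes, by log2 ratios of -1.20, -1.22, -1.08 and -1.20 (FC 2.26, adjusted p = 4.1e-05, limma). SLC25A14, a brain uncoupling protein, had a log2 ratio of -0.38, just past the FC threshold. It was not called with normexp and loess, no background correction and loess or median centring, or without array 3 or array 4. In fatty acid oxidation 1 of 17 tested genes was higher and 4 were lower. The carnitine palmitoyltransferases moved in opposite directions: CPT1A, the liver form, rose by 0.74 ± 0.08, while CPT1B, the muscle form, had a log2 ratio of -1.23 ± 0.32, or -0.34 and not called with normexp and loess. With spike-in scaling CPT1A was at 0.10 and was not called, or 0.77 above the median of all probes. The others were ETFA (-0.56), HADHB (-0.50) and ACADM (-0.45), enzymes of β-oxidation or its electron transfer. With normexp and loess, and with no background correction and loess, none of these was called. ACADM was also not called with median centring. ETFA was also not called with the methods' t-test after adjustment or no filter on dim probes. It came as close to 0 as -0.08 among the alternatives. Among 13 tested genes of mitochondrial fusion, fission and mitophagy, PHB2, an inner-membrane prohibitin, was higher (0.40) and OMA1, a protease of the inner membrane, was lower (-0.45). PHB2 was not called with probe GC correction or without array 1. With spike-in scaling it was at -0.17 and was not called, or 0.50 above the median of all probes. OMA1 was not called with normexp and loess or with no background correction and loess.

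**Figure D4:**
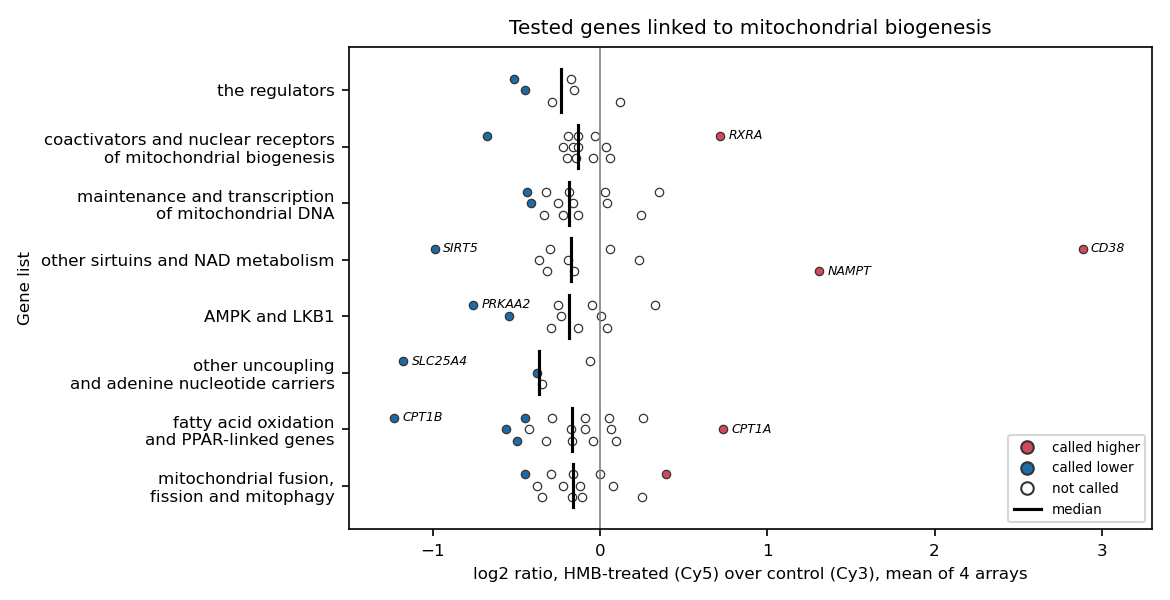
Mean log2 ratio over 4 arrays of the tested regulators and of the tested genes of 7 related lists, 1 probe per gene, filled where called and with a bar at each median. Most genes lie within 0.4 of 0, and CD38, NAMPT, SLC25A4, CPT1B and SIRT5 stand farthest out. The point of CD38 rests on a Cy3 signal that was not well above background.

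Markers of the cells moved alongside these ratios. Of 9 muscle markers, 6 were tested and 4 were lower, namely CKM, ACTA1, DES and MYH3, with a median log2 ratio of -1.02. The summed signal of the tested muscle markers was 165828 to 186614 in Cy3 and 63110 to 100407 in Cy5. MYOD1 (0.32) and MYOG (0.03) were not called. Of 5 fibroblast markers, 4 were tested and 3 were higher, PDGFRA, DCN and THY1. COL3A1 (0.06) was not called by its brightest probe, though 3 of its 7 probes were called. The summed signal of the tested fibroblast markers was 182733 to 212091 in Cy3 and 208963 to 319800 in Cy5. Of 5 leukocyte markers, 2 were tested and CD68 was higher (0.88), with sums of 3652 to 4392 and 4126 to 6169. None of 4 endothelial markers and none of the 3 adipocyte markers on the array was tested. The part of cell composition in the ratios of the regulators was not tested, and fewer muscle cells cannot be told apart from less RNA per cell.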

How the data were processed

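ESC of 1 group pair were compared on 4 two-colour Agilent 4x44K horse arrays with probes annotated on EquCab1. The intensity values in the deposited scanner files are spot signals after background subtraction and linear and lowess normalization by the authors. The deposited log10 values are ratios of Cy5 over Cy3 from Feature Extraction (version 10.10.1.1 per the file headers). The log2 ratios were calculated here from the log10 ratios. Signals at background were replaced by a surrogate upstream, which can give a ratio of 0.

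Control spots, and at most 35 spots per array marked as non-uniform or outliers, were left out. No spot was saturated. Correlations between arrays were 0.837 to 0.920 over tested probes. Tests used R 4.3.3 and limma 3.58.1, with ratios on at least 3 arrays, and were checked on simulated data. A gene was represented by its brightest tested probe. All 10 regulators were named with every probe, and every called gene of the lists. The genes, lists and markers were chosen with earlier results of these data known. The Cy3 floors for NRF1 and CD38 used Aquantile-scaled signals. All 10 symbols were found in the RefSeq table. The number of arrays limits the precision. Alternatives covered the test, background, normalization, GC content, filters, the authors' table, probes per gene and each array left out.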

Additional observations from a re-analysis of the deposited data

Results flagged for a closer look

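Of 47 regulator probes and related or marker genes checked, 5 had 1 array far from the other 3. Chance gives about 1 in 20. The value is the gap to the nearest array divided by the whole range. PPARGC1B was flagged in 1 of its 5 overlapping probes (0.834), with array 1 at -0.51 and the others from -0.15 to -0.07. UCP3 was flagged (1) because array 4 alone had a ratio other than 0, and its probe was not well above background. SLC25A4 (0.877), CKM (0.885) and DES (0.860) each had array 3 nearest to 0: SLC25A4 at -1.08, CKM at -0.61 and DES at -0.79. TFAM and SIRT1 had their lowest ratio on the same array.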

How the results depend on the processing

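Each of the 6 tested regulators kept its sign under every alternative except SIRT3, which turned to -0.48 with spike-in scaling. That scaling called 6 regulators, 15 of their probes, 70 related genes and 20150 probes of the array, with PPARGC1B at -0.77, TFAM at -0.89 and UCP2 at -1.07. It rests on 10 spike-in controls, and 4.94% of its calls were higher, against 42.5% as reported. Normexp and loess called 1 regulator (ESRRA), 2 probes, 9 related genes and 3537 probes, 55.0% higher, with SIRT1 at -0.13. No background correction and loess called 0 regulators, although ESRRA and SIRT1 as lower and SIRT3 as higher (0.17, adjusted p = 0.0410, limma) passed the adjusted p, 0 probes, 10 related genes and 4439 probes, 60.1% higher, with ESRRA at -0.36 and SIRT1 at -0.24. Median centring called 1 regulator (SIRT1) and 1 probe, with ESRRA at -0.33, and 52.4% of calls were higher. The methods' t-test after Benjamini-Hochberg called 1 regulator and 5031 probes, with SIRT1 unchanged at -0.51 but an adjusted p of 0.0569 (6458 probes unadjusted). With no filter on dim probes 4 regulators were called, adding PPARGC1A (adjusted p = 0.0228, limma) and NRF1 (adjusted p = 0.0479, limma) as higher. Both rest on probes with Cy3 not well above background on any array, so their ratios have no defined size. The other PPARGC1A probe had a ratio of 0 and was not called. With adjusted p alone TFAM (-0.29), 38 related genes and 11558 probes passed. Leaving out 1 array gave -0.47 to -0.43 for ESRRA and -0.57 to -0.42 for SIRT1, both still called. UCP2 was at -0.29 without array 1 and -0.03 without array 2, and PPARGC1B at -0.08 without array 1 and -0.21 without array 2. The ranges were -0.35 to -0.20 for TFAM and 0.09 to 0.16 for SIRT3, none called. The causes were not tested. UCP2 gave no value where both channels had to be above background. The ratios within arrays are already paired, and no fit without the pairing was made.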
